A study of Homo sapiens with 18 samples.

Results

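The ELR chemokines of the CXCL8 family are 6 small secreted proteins, CXCL1, CXCL2, CXCL3, CXCL5, CXCL6 and CXCL8, and their genes were taken by symbol from a table of 62710 genes measured in spheroids of a human breast cancer cell line. All 6 symbols were found once. Of the 6 genes, 5 passed the filter on low counts and could be tested, and CXCL6 did not.

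The libraries came from MDA-MB-231, a human breast cancer line that lacks oestrogen and progesterone receptors, grown as spheroids of 2000 cells with 100000 cells in a sample. MMP14-KO spheroids, in which the gene of the cell-surface collagenase MMP14 was targeted, were collected from hanging droplets after 5 days of formation, after 24 h in a collagen hydrogel and after 48 h in it. Control spheroids, labelled Wildtype, were collected in the same 3 conditions, so that 18 polyA RNA-seq libraries form 6 groups of 3. Spheroids in collagen were freed with collagenase at 2 mg/ml and those in droplets were not, so the matrix, the days in culture and the digestion cannot be told apart in a comparison of collagen with droplets. The sources used here give neither the number of MMP14-KO clones nor whether the 3 samples of a group were separate cultures, and p-values then measure only the spread between these samples.

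Total counts were 19819401 to 33352163 in a library. MMP14 mRNA was at 137.9 to 165.6 CPM (counts scaled to the effective library total) in the 9 MMP14-KO libraries, against 1284 to 2250 CPM in the 9 control libraries. The mesenchymal and stem-like markers of this line (VIM, CD44, ZEB1 and AXL) summed to 3040 to 5599 CPM, and ESR1, PGR and CDH1, the receptors and the epithelial cadherin it is known to lack, each stayed under 1 CPM. EPCAM, an epithelial marker also listed as absent, was at 3.80 to 10.4 CPM. Leukocyte markers summed to 101 to 151 CPM over all groups. Of the 10 markers 6 stayed under 1 CPM throughout, among them 4 with no read in any library, and the others passed 1 CPM. Of 6 endothelial markers 3 stayed under 1 CPM and none was at 0 throughout, and their sum was higher in MMP14-KO than in control droplets (51.0 to 52.1 against 34.3 to 37.7 CPM), at 24 h (37.8 to 43.7 against 18.3 to 28.5 CPM) and at 48 h (38.3 to 48.2 against 17.9 to 21.8 CPM). Fibroblast markers summed to 32.98 to 59.4 CPM. The part of these markers in the results was not tested. The control library of replicate 1 at 24 h stood above the other 2 of its group for these chemokines. Some results that include it are given with and without it. Where no left-out library is named, values are with all libraries.

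ELR chemokines carry a glutamate-leucine-arginine motif before their first cysteines and draw neutrophils through the receptor CXCR2, with CXCL8 and CXCL6 also acting through CXCR1. In tumour cells they are made after signals such as interleukin-1 and TNF, through the transcription factor NF-kB, with AP-1 and C/EBP factors acting on CXCL8, and their mRNAs carry AU-rich elements that speed decay. MDA-MB-231 cells are known for high basal CXCL8 secretion.

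The 6 genes lie within 358.8 kb of chromosome 4 (GRCh38, GENCODE 29). CXCL8, CXCL6 and CXCL1 are on the plus strand, at chr4:73740506-73743716, chr4:73836497-73849064 and chr4:73869393-73871242, and CXCL5, CXCL3 and CXCL2 are on the minus strand, at chr4:73995642-73998779, chr4:74036589-74038807 and chr4:74097035-74099293. None of the 6 was overlapped by a gene on the opposite strand. The coding sequences of CXCL1, CXCL2 and CXCL3 were 90.7% to 94.4% identical to each other, those of CXCL5 and CXCL6 were 87.4% identical, and CXCL8 was 48.1% to 52.8% identical to the others. No stretch of 151 bases, the read length, was shared between the transcripts of any members, and stretches of 75 bases were shared for 0.293% of positions in CXCL1, 2.273% in CXCL2 and 2.298% in CXCL3. The small shared part leaves the split of reads among CXCL1, CXCL2 and CXCL3 slightly uncertain.

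The promoters are shown because the genes changed in different ways while holding the same 9-base NF-kB match. These are the 150 bases before each RefSeq start (GRCh38.p14), 5′ to 3′ on the gene's own strand, with matches to GGNNNTTCC on either strand in capitals.
CXCL8: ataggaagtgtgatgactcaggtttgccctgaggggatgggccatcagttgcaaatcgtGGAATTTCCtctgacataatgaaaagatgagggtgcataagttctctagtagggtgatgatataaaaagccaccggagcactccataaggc
CXCL1: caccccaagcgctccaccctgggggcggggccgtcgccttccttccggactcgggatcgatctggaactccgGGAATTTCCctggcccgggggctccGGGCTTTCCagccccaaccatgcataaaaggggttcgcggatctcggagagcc
CXCL2: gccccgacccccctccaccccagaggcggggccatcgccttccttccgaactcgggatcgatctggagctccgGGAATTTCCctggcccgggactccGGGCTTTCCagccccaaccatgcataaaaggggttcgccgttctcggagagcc
CXCL3: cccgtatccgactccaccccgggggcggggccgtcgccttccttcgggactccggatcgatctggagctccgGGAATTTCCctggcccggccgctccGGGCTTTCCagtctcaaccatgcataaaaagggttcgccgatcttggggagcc
CXCL5: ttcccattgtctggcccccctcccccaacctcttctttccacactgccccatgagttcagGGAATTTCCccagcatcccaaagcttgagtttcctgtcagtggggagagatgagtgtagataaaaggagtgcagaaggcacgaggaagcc
CXCL6: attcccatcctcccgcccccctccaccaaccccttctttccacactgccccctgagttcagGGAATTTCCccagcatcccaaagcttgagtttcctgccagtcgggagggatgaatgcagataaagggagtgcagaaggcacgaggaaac

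The windows are chr4:73740419-73740568 for CXCL8, chr4:73869243-73869392 for CXCL1 and chr4:73836528-73836677 for CXCL6 on the plus strand. On the minus strand they are chr4:74099196-74099345 for CXCL2, chr4:74038690-74038839 for CXCL3 and chr4:73998678-73998827 for CXCL5. GGAATTTCC was in 6 of 6 windows, starting 77 to 91 bases before the start, and in 0.25% of the 35116 RefSeq promoter windows of this length. The looser GGNNNTTCC, which includes it, was in 6 of 6 against 11.09% of all windows. GGAATTTCC was searched as the letters found in CXCL8, so its presence in that window was given beforehand. Members with near-identical windows are not independent of each other in these counts. CXCL1, CXCL2 and CXCL3 held a further match, GGGCTTTCC, at the same place 53 to 45 bases before the start. The AP-1 letters TGANTCA were in the CXCL8 window alone of the 6 (4.17% of all windows), and the C/EBP letters TTNCNNAA were in none of the 6 (20.01% of all). The windows of CXCL1 and CXCL2 were 88.7% identical, those of CXCL1 and CXCL3 88.1%, those of CXCL2 and CXCL3 86.1%, and those of CXCL5 and CXCL6 89.4%, while CXCL8 was 41.4% to 46.9% identical to the others. A match is a description of the letters and not of a bound factor, and no match says only that the letters are not in this window.

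CXCL8 was the most abundant member in every library. Per kilobase of exon, CXCL8 stood above CXCL1 in 18 of 18 libraries, CXCL2 above CXCL3 in 18 of 18 and CXCL3 above CXCL5 in 18 of 18, while CXCL1 stood above CXCL2 in 16 of 18. The 2 exceptions were 1 MMP14-KO library and 1 control library at 24 h, where the ranges of CXCL1 and CXCL2 per kilobase overlapped within each genotype. At 24 h CXCL1 was at 34.0 ± 4.75 and CXCL2 at 32.3 ± 1.496 CPM per kb in MMP14-KO spheroids, and at 60.6 ± 42.1 and 43.2 ± 17.5 CPM per kb in control spheroids (SD, n = 3 each), where CXCL1 had 34.0 and 38.5 and CXCL2 36.4 and 30.1 CPM per kb in the 2 libraries other than the high one. The make-up of the family thus differed by condition. CXCL2 made 3.44% of the family's summed CPM per kb in MMP14-KO droplets, 16.3% at 24 h and 8.01% at 48 h. CXCL1 made 27.9%, 17.01% and 20.7% in the same groups, and 33.5%, 20.9% and 23.8% in control spheroids.

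**Figure D1:**
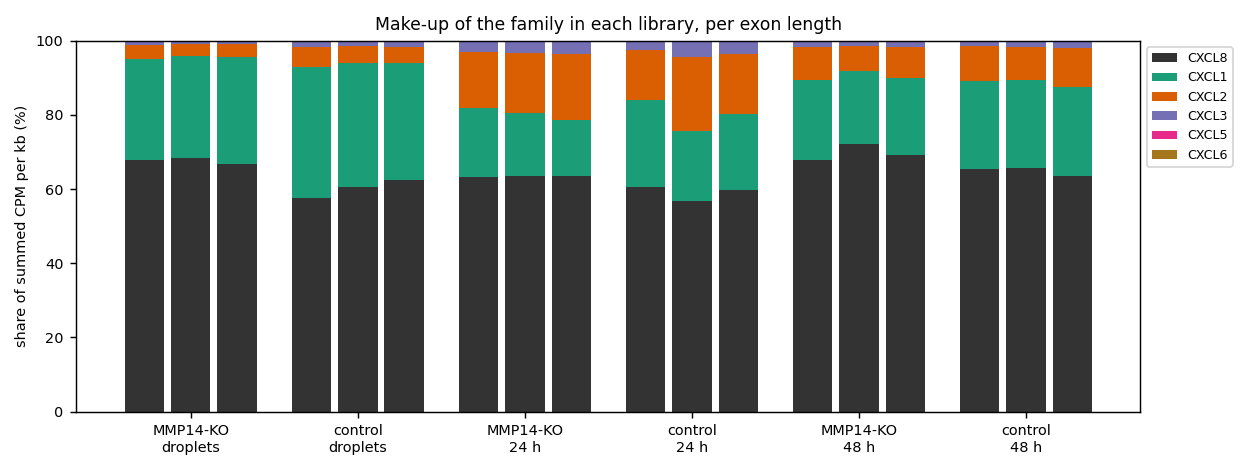
Share of the family's summed level (CPM per kb of exon, percent, y axis) held by each member in every library, 1 bar a library, MMP14-KO left of control in each condition. The CXCL2 band is widest at 24 h in both genotypes, CXCL8 holds at least 56.8% of every bar, and CXCL5 and CXCL6 are too low to be seen.

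CXCL8, the human interleukin-8 gene, had its highest group means in droplets and its lowest in control spheroids at 48 h. MMP14-KO libraries held 564.0, 715.9 and 392.03 CPM in droplets, 296.1, 291.3 and 275.3 CPM at 24 h and 231.6, 419.2 and 200.2 CPM at 48 h. Control libraries held 387.7, 539.4 and 459.6 CPM in droplets, 645.9, 234.2 and 253.9 CPM at 24 h and 186.4, 200.1 and 128.5 CPM at 48 h. Among the group means, MMP14-KO droplets came first, and control at 48 h was the one group whose libraries lay wholly below those of the group above it, by a narrow margin (highest 200.1 CPM, against a lowest of 200.2 CPM in MMP14-KO at 48 h). In control spheroids CXCL8 fell at 48 h to 171.7 ± 38.0 CPM, against 462.2 ± 75.9 CPM in droplets (SD, n = 3 each). The log2 fold change was -1.43 with an SE of 0.400 (adjusted p = 0.00844 by edgeR, here and below its quasi-likelihood test with p-values adjusted by Benjamini and Hochberg over all genes). In MMP14-KO spheroids the means were 283.7 ± 118.4 CPM at 48 h and 557.3 ± 162.1 CPM in droplets (log2 fold change -0.97, SE 0.394, adjusted p = 0.0572 by edgeR), which did not pass. It passed without MMP14-KO droplet replicate 3 (-1.19, adjusted p = 0.0416 by edgeR) or without MMP14-KO replicate 2 at 48 h (-1.38, adjusted p = 0.0191 by edgeR), and by DESeq2 (adjusted p = 0.0346). At 24 h against droplets the log2 fold changes were -0.95 in MMP14-KO (adjusted p = 0.0600 by edgeR) and -0.29 in control spheroids (adjusted p = 0.552 by edgeR). The MMP14-KO value passed without MMP14-KO droplet replicate 3 (-1.16, adjusted p = 0.0443 by edgeR) and by DESeq2 (adjusted p = 0.0398). Without the control library of replicate 1 at 24 h, that control value was -0.92 and passed (adjusted p = 0.0337 by edgeR). At 48 h against 24 h in control spheroids it was -1.14 (adjusted p = 0.0833 by edgeR and 0.0333 by DESeq2), and -0.51 without that library.

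CXCL1, a neutrophil-attracting chemokine first known as a melanoma growth factor, fell in collagen at both times in MMP14-KO and at 48 h in control spheroids. It had 129.4, 163.5 and 96.4 CPM in MMP14-KO droplets, 50.2, 44.1 and 37.9 CPM at 24 h and 42.2, 64.7 and 34.2 CPM at 48 h. In control spheroids it had 135.8, 169.3 and 133.3 CPM in droplets, 141.4, 44.1 and 49.9 CPM at 24 h and 38.8, 41.1 and 27.7 CPM at 48 h. Droplet libraries lay above all collagen libraries of their genotype except for the 1 control library with 141.4 CPM. In MMP14-KO spheroids the log2 fold change against droplets was -1.56 at 24 h (SE 0.404, adjusted p = 0.00609 by edgeR) and -1.46 at 48 h (SE 0.404, adjusted p = 0.00925 by edgeR). In control spheroids it was -2.03 at 48 h (SE 0.412, adjusted p = 0.00100 by edgeR), which left 24.5% of the droplet level. The control value at 24 h was -0.91 and did not pass (adjusted p = 0.0648 by edgeR), and without the high library it was -1.63 and passed (adjusted p = 0.000443 by edgeR). At 48 h against 24 h in control spheroids it was -1.12 (adjusted p = 0.0973 by edgeR and 0.0390 by DESeq2), and -0.39 without that library.

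CXCL2, known in mouse as macrophage inflammatory protein 2, rose at 24 h in both genotypes and came down by 48 h. Its levels were 20.5, 21.9 and 13.2 CPM in MMP14-KO droplets, 46.3, 48.4 and 50.8 CPM at 24 h and 19.9, 25.9 and 16.1 CPM at 48 h. Control libraries had 23.3, 27.8 and 21.1 CPM in droplets, 94.7, 54.5 and 45.2 CPM at 24 h and 17.6, 17.9 and 14.1 CPM at 48 h. All 6 libraries at 24 h lay above the 12 others, the lowest at 45.2 CPM against a highest of 27.8 CPM. The log2 fold change at 24 h against droplets was 1.39 in MMP14-KO (SE 0.274, adjusted p = 0.000914 by edgeR) and 1.421 in control spheroids (SE 0.267, adjusted p = 0.000507 by edgeR), which are rises of 2.62-fold and 2.68-fold. At 48 h against 24 h CXCL2 fell, with log2 fold changes of -1.23 in MMP14-KO (adjusted p = 0.0276 by edgeR) and -1.96 in control spheroids (adjusted p = 0.000574 by edgeR). Without any of 5 of the 6 MMP14-KO libraries in turn, the MMP14-KO fall no longer passed (log2 fold changes of -1.27 to -1.10, adjusted p = 0.0652 to 0.104 by edgeR). At 48 h against droplets neither genotype passed, with log2 fold changes of 0.16 in MMP14-KO and -0.54 in control spheroids (adjusted p = 0.680 and 0.133 by edgeR).

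CXCL3, the nearest relative of CXCL2 in coding sequence, also peaked at 24 h, at a lower level. MMP14-KO libraries had 8.48, 9.49 and 5.46 CPM in droplets, 14.01, 15.1 and 14.9 CPM at 24 h and 5.35, 7.75 and 4.71 CPM at 48 h. Control libraries had 11.3, 11.8 and 11.3 CPM in droplets, 26.1, 17.4 and 15.3 CPM at 24 h and 4.27, 4.64 and 3.80 CPM at 48 h. Among the members, CXCL3 was the one with no overlap between MMP14-KO and control libraries in any of the 3 conditions, and the order of the genotypes turned round at 48 h. The share of all genes without such overlap was not counted. No genotype difference of CXCL3 passed by edgeR (adjusted p = 0.0892 in droplets, 0.133 at 24 h and 0.166 at 48 h). CXCL3 rose at 24 h against droplets by 0.91 in MMP14-KO (SE 0.210, adjusted p = 0.00181 by edgeR) and 0.77 in control spheroids (SE 0.200, adjusted p = 0.00377 by edgeR) on the log2 scale. At 48 h against 24 h it fell, with -1.31 in MMP14-KO (SE 0.222, adjusted p = 0.00303 by edgeR) and -2.20 in control spheroids (SE 0.225, adjusted p = 1.21e-05 by edgeR). At 48 h it was below droplets in control spheroids (log2 fold change -1.43, SE 0.233, adjusted p = 7.08e-05 by edgeR), while the value of -0.39 in MMP14-KO did not pass (adjusted p = 0.172 by edgeR). It passed without MMP14-KO droplet replicate 3 (-0.61, adjusted p = 0.0284 by edgeR) or without MMP14-KO replicate 2 at 48 h (-0.64, adjusted p = 0.0463 by edgeR).

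**Figure D2:**
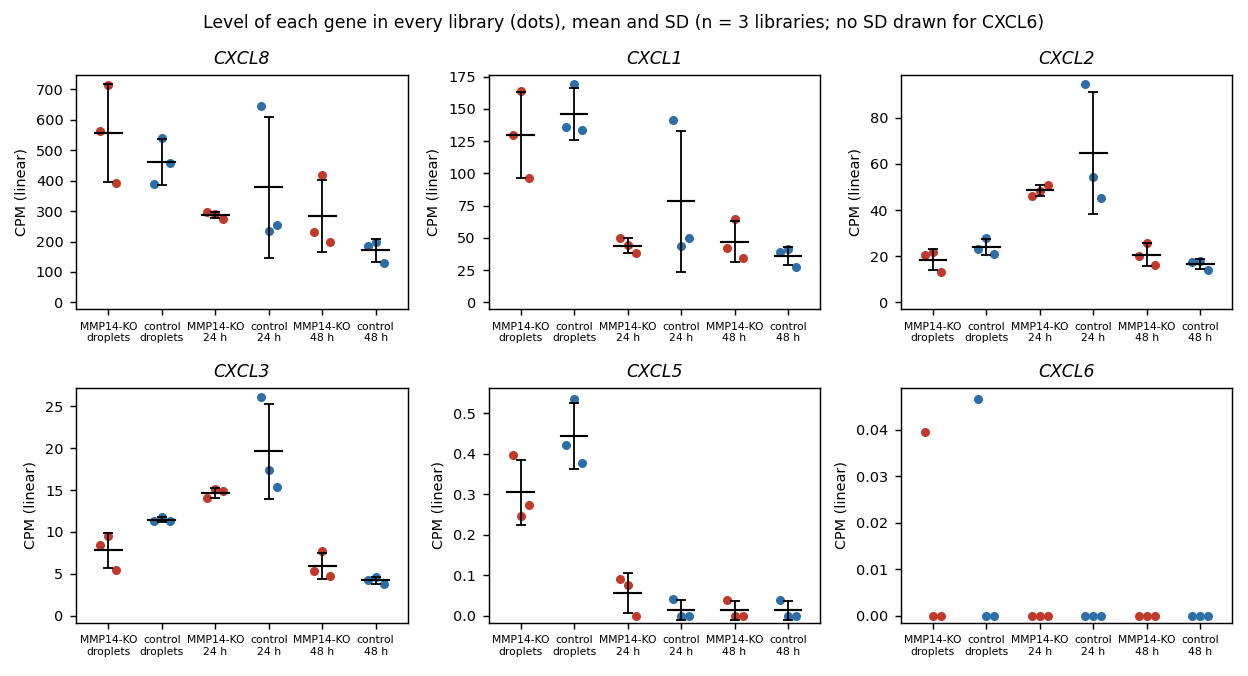
Level of each member (CPM, linear y axis, 1 panel a gene) in every library as a dot, with the mean as a line and the SD as a bar (n = 3), MMP14-KO in red left of control in blue for droplets, 24 h and 48 h. CXCL2 and CXCL3 peak at 24 h, CXCL1 is highest in droplets apart from 1 control library at 24 h, 1 library in collagen of each genotype reaches the droplet range for CXCL8, and CXCL5 is near 0 in collagen.

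CXCL5 and CXCL6, neutrophil attractants often made by epithelial cells, had few reads or none. CXCL5 had 10, 7 and 8 reads in MMP14-KO droplets and 9, 15 and 10 reads in control droplets. In collagen it had 2, 2 and 0 reads in MMP14-KO spheroids at 24 h and 1, 0 and 0 at 48 h, and in control spheroids it had 1, 0 and 0 reads at 24 h and again at 48 h. It passed the filter through its droplet counts alone and so had to be lower in collagen, and its tests against droplets are not used. As ratios of summed reads scaled to depth, the level at 48 h was 4.95% of droplets in MMP14-KO spheroids (exact binomial 95% interval 0.121% to 30.3%) and 3.08% in control spheroids (0.0757% to 18.3%). At 24 h it was 18.4% in MMP14-KO spheroids (4.66% to 53.3%) and 2.72% in control spheroids (0.0670% to 16.2%), and these intervals cover counting error only. CXCL6 had 1 read in 1 MMP14-KO droplet library and 1 read in 1 control droplet library, and none in the other 16. A count of 0 over the 3 libraries of a group allows up to 0.0447 CPM, taken as 3 reads.

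Set side by side over time, CXCL2 and CXCL3 rose at 24 h in both genotypes and CXCL8 and CXCL1 did not. Of the 4 members other than CXCL5, 2 were called higher and 1 lower in MMP14-KO spheroids at 24 h against droplets, where 25.5% and 25.7% of the 17030 tested genes were called higher and lower. For 48 h against droplets they were 0 higher and 1 lower (25.8% and 23.6% of all genes), and for 48 h against 24 h they were 0 higher and 2 lower (2.07% and 1.73%). In control spheroids the 4 gave 2 higher and 0 lower at 24 h against droplets (27.8% and 28.7% of all genes), or 2 higher and 2 lower without the high library, and at 48 h against droplets 0 higher and 3 lower (27.7% and 27.5%). For control spheroids at 48 h against 24 h they were 0 higher and 2 lower (6.32% and 6.88%). CXCL2 and CXCL3 were the 2 called at 48 h against 24 h in each genotype, where few genes were called at all.

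**Figure D3:**
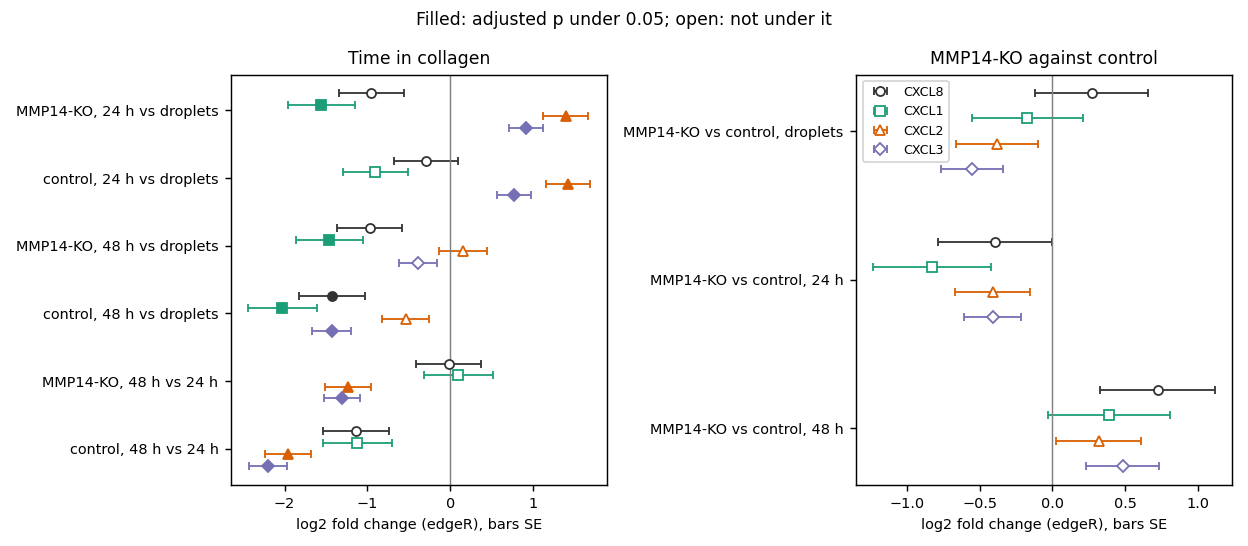
Log2 fold changes (x axis, points) with SE (bars) from edgeR for CXCL8, CXCL1, CXCL2 and CXCL3, comparisons over time at left and of MMP14-KO with control at right, filled where the adjusted p was under 0.05. At 24 h CXCL2 and CXCL3 lie right of 0 and CXCL8 and CXCL1 left of it in both genotypes, and no point at right is filled.

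No member passed in the comparison of MMP14-KO with control spheroids in any condition. In droplets, 7.7% of all tested genes were called higher and 9.7% lower in MMP14-KO, against 13.7% and 15.7% at 24 h and 14.4% and 15.1% at 48 h. Scaled by library size alone, 61.9% of the called genes were higher in MMP14-KO at 24 h and 64.3% at 48 h, against 46.5% and 48.9% with the scaling used here, and no member was called. Of the 5 members 0 were called by edgeR in each, 1 had an unadjusted p under 0.05 in droplets and 0 at 24 h and 48 h, and DESeq2 called 1 in droplets and 0 at 24 h and 48 h. The 1 in both counts was CXCL3, at 7.81 ± 2.09 CPM in MMP14-KO droplets and 11.4 ± 0.287 CPM in control droplets (SD, n = 3 each). This is a difference of -0.55 on the log2 scale (SE 0.213, adjusted p = 0.0892 by edgeR and 0.0378 by DESeq2). The intervals stayed wide for CXCL8. Its log2 fold change was 0.27 in droplets (95% interval -0.58 to 1.12), -0.39 at 24 h (-1.25 to 0.46) and 0.72 at 48 h (-0.14 to 1.59). CXCL1 had -0.17 in droplets (-1.005 to 0.66), -0.82 at 24 h (-1.71 to 0.06) and 0.39 at 48 h (-0.53 to 1.31). CXCL2 had -0.38 in droplets (-0.997 to 0.23), -0.41 at 24 h (-0.97 to 0.14) and 0.32 at 48 h (-0.33 to 0.96). CXCL3 had -0.55 in droplets (-1.02 to -0.09), -0.41 at 24 h (-0.84 to 0.02) and 0.48 at 48 h (-0.06 to 1.03). Without the high control library at 24 h, the values at 24 h were 0.24 for CXCL8, -0.09 for CXCL1, -0.03 for CXCL2 and -0.15 for CXCL3, all smaller in size or turned in sign. The other 2 control libraries still lay above all 3 MMP14-KO libraries for CXCL3.

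The interaction asks whether the change over time differed between the genotypes. None of the 5 members passed by edgeR at 24 h against droplets (7.41% of all genes called), at 48 h against droplets (6.79%) or at 48 h against 24 h (0%). Unadjusted p-values under 0.05 numbered 0, 1 and 1 in these 3 tests, each time CXCL3, and DESeq2 called 0, 1 and 0. For CXCL3 at 48 h against droplets the difference of log2 fold changes was 1.04 (SE 0.330, adjusted p = 0.0695 by edgeR and 0.00967 by DESeq2), from -0.39 in MMP14-KO and -1.43 in control spheroids. It passed by edgeR without MMP14-KO droplet replicate 2 (1.195, adjusted p = 0.0494). Over all genes, the interaction of 48 h with 24 h had 0 calls by edgeR, 1107 unadjusted p-values under 0.05 and 10 calls by DESeq2.

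Within a library, the reads of CXCL8 for each read of CXCL1 do not depend on depth or scaling, and this ratio was higher in MMP14-KO spheroids in all 3 conditions. It was 4.36, 4.38 and 4.07 in MMP14-KO droplets, against 2.86, 3.19 and 3.45 in control droplets. At 24 h it was 5.89, 6.60 and 7.26 in MMP14-KO spheroids, against 4.57, 5.32 and 5.08 in control spheroids. At 48 h it was 5.49, 6.48 and 5.85 in MMP14-KO spheroids, against 4.81, 4.87 and 4.64 in control spheroids. The genotypes did not overlap in any condition. Averaged over conditions the log2 ratio was 0.38 higher in MMP14-KO, a 1.303-fold difference (9 libraries each, exact permutation test within conditions, two-sided, p = 0.00025, the smallest it can give, and 0.006 adjusted over 24 ratio tests). This measure was chosen after the levels had been seen, and the p-values do not allow for that choice. Ratios between other pairs of genes were not compared, so the share of pairs without overlap is not known. The same difference for CXCL8 against CXCL2 was 0.38 (p = 0.00525, adjusted p = 0.00741) and for CXCL8 against CXCL3 0.40 (p = 0.01425, adjusted p = 0.018, exact permutation tests of the same kind). The genotypes did not overlap in 2 of 3 conditions for CXCL8 against CXCL2 and in 1 of 3 for CXCL8 against CXCL3. All these ratios share the CXCL8 counts and are not independent of each other. Among CXCL1, CXCL2 and CXCL3 the ratios differed by -0.01 to 0.02 on the log2 scale (p = 0.967, 0.921 and 0.728 by the same exact test).

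Over time the ratio of CXCL1 to CXCL2 moved most. It was 7.03 ± 0.632 in MMP14-KO droplets, 0.914 ± 0.169 at 24 h and 2.25 ± 0.215 at 48 h, and in control spheroids it was 6.08 ± 0.240, 1.14 ± 0.344 and 2.15 ± 0.169 (SD, n = 3 each). At 24 h against droplets it was 6.54-fold lower over both genotypes (log2 difference -2.71, exact permutation test within genotypes, two-sided, p = 0.005, the smallest it can give, adjusted p = 0.00741). The ratio of CXCL2 to CXCL3 changed less, with means of 3.30 in MMP14-KO and 3.24 in control spheroids at 24 h against 2.38 and 2.10 in droplets, a log2 difference of 0.55 over both genotypes (p = 0.005 by the same exact test).

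**Figure D4:**
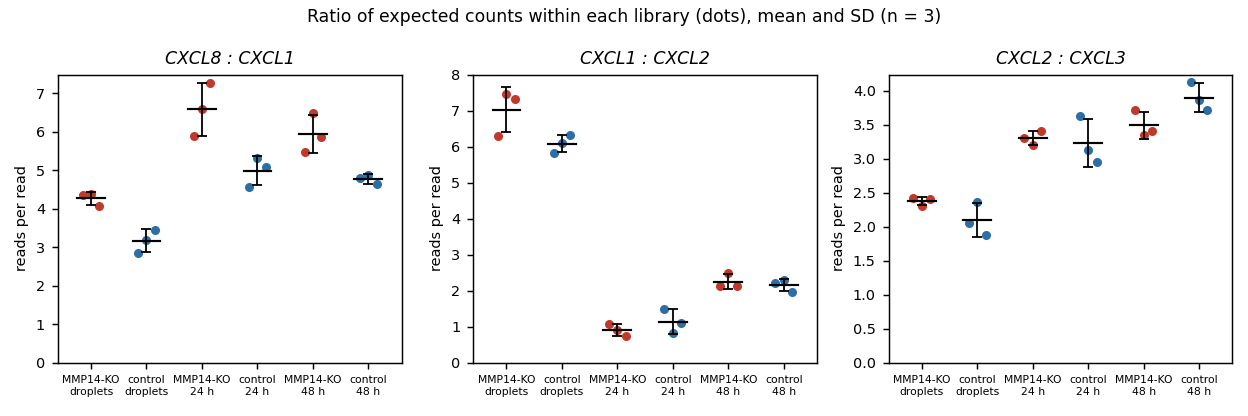
Ratio of expected counts within each library (y axis, reads of the first gene per read of the second, dots) with mean and SD (n = 3), MMP14-KO in red left of control in blue. CXCL8 to CXCL1 is higher in every MMP14-KO group than in its control, and CXCL1 to CXCL2 is lowest at 24 h in both genotypes.

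The members varied together between libraries of a group. In 14 of 18 libraries CXCL8, CXCL1, CXCL2 and CXCL3 all stood on the same side of their group means, with deviations of -0.62 to 1.06 in log2 CPM. Of the 4 other libraries 3 were MMP14-KO at 24 h, where the spread was small. The control library of replicate 1 at 24 h was the farthest above its group, with deviations of 0.45 to 1.06. SOD2, a mitochondrial antioxidant enzyme induced by NF-kB, was at 386.4 CPM in that library against 208.1 and 206.6 CPM in the other 2, and IL1B, an inducing cytokine, at 51.8 against 19.4 and 23.5 CPM. RELA, the p65 subunit of NF-kB, was at 94.6, 93.9 and 92.0 CPM in the 3. Over all genes that library was not unusual, with a root-mean-square deviation of 0.269 log2 CPM in a range of 0.230 to 0.281 over the 18.

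**Figure D5:**
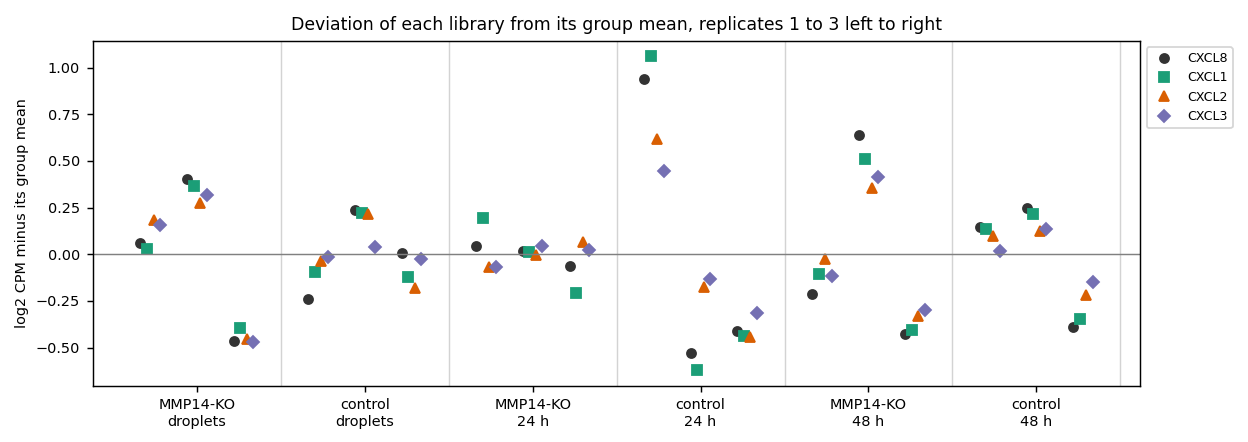
Log2 CPM of 4 members minus the mean of their group (y axis) in each library, replicates 1 to 3 left to right within each group, MMP14-KO left of control. The 4 symbols of a library lie close together, and the control library of replicate 1 at 24 h is the highest, up to 1.06.

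The receptors and the platelet relatives of the family had few reads or none. CXCR1 had no read in any library, CXCR2 had 1 and ACKR1, a decoy receptor, had 3. PPBP, the precursor of a platelet ELR chemokine and a neighbour on chromosome 4, and PF4V1 had none, and PF4 had 39 over all libraries. None of the 3 receptor genes and none of the 3 genes PPBP, PF4 and PF4V1 passed the filter.

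Of 14 feedback targets of NF-kB, all tested, 0 were called higher and 6 lower in MMP14-KO than in control droplets, with a median log2 fold change of -0.31 (7.7% and 9.7% of all genes were called). At 24 h 1 was called higher and 4 lower (median -0.21, with 13.7% and 15.7% of all genes called), or 2 and 3 without the high control library, and at 48 h 2 and 3 (median 0.22, with 14.4% and 15.1%). Over all tested genes the median was between -0.00352 and 0.0208 in every comparison. BIRC3, an inhibitor of apoptosis, had 142.0 CPM in MMP14-KO and 250.4 CPM in control droplets (log2 fold change -0.82, SE 0.195, adjusted p = 0.0112 by edgeR). In collagen against droplets, 1 was called higher and 7 lower in MMP14-KO at 24 h and 0 and 6 at 48 h, and in control spheroids 1 and 8 at 24 h and 0 and 10 at 48 h (median log2 fold changes of -0.36, -0.43, -0.62 and -0.93), against 23.6% to 28.7% of all genes called in each direction. Without the high library the control counts at 24 h were 1 and 10. ICAM1, a leukocyte adhesion receptor, fell at 24 h, with log2 fold changes of -1.84 in MMP14-KO and -1.78 in control spheroids. The 1 called higher at 24 h was NFKBIZ, the nuclear coactivator IkB-zeta, in both genotypes, by 0.98 in MMP14-KO and 0.86 in control spheroids. Its course over the conditions was like that of CXCL2, with 110.4 CPM in MMP14-KO and 102.4 CPM in control spheroids at 24 h against 56.1 and 56.4 CPM in droplets. Of the 11 core NF-kB genes, 2 were called higher and 3 lower in MMP14-KO and 2 and 2 in control spheroids at 24 h against droplets, with RELA at log2 fold changes of -0.01 and -0.08, neither called. RELB (-1.25 in MMP14-KO and -1.14 in control spheroids) and NFKB2 (-0.34 and -0.53) were called lower in both. TAB2 (0.26 and 0.24) and CHUK (0.16 and 0.29) were called higher in both. Without the high library the control counts were 3 and 2. Of all genes, 25.5% and 25.7% were called higher and lower in MMP14-KO and 27.8% and 28.7% in control spheroids, so these counts show nothing particular to the core genes. Against control, MMP14-KO spheroids had 0 of the 11 called higher and 2 lower in droplets (7.7% and 9.7% of all genes). At 24 h they were 0 and 3 (13.7% and 15.7%), or 0 and 2 without the high library, and at 48 h 2 and 2 (14.4% and 15.1%). With all libraries NFKB1 was among the lower genes in each condition, by -0.15, -0.35 and -0.19 on the log2 scale.

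Of 11 tested AP-1 and C/EBP factors and EGR1, 8 were called higher and 1 lower at 24 h against droplets in each genotype, with medians of 1.3004 in MMP14-KO and 1.72 in control spheroids on the log2 scale. Of all genes, 25.5% and 25.7% were called higher and lower in MMP14-KO and 27.8% and 28.7% in control spheroids. FOS, an AP-1 subunit, was at 845.5 CPM in MMP14-KO and 929.3 CPM in control spheroids at 24 h, against 8.44 and 6.46 CPM in droplets. CEBPB, a C/EBP factor, was the 1 called lower, with log2 fold changes of -0.55 in MMP14-KO and -0.31 in control spheroids, and CEBPD, another C/EBP factor, had -0.35 and -0.20, neither called. By 48 h, against droplets, 9 were called higher and 1 lower in MMP14-KO and 9 and 2 in control spheroids, where CEBPB (-0.63) and CEBPD (-0.87) were the 2 lower, and without the high library both were also the 2 called lower in control spheroids at 24 h. The shares of all genes at 48 h were 25.8% and 23.6% in MMP14-KO and 27.7% and 27.5% in control spheroids. Against control, MMP14-KO spheroids had 3 of the 11 called higher in droplets and 3 at 48 h, CEBPB and JUNB in both, and 0 higher and 2 lower at 24 h, FOSL1 and JUN. The shares of all genes called higher and lower were 7.7% and 9.7% in droplets, 13.7% and 15.7% at 24 h and 14.4% and 15.1% at 48 h. Without the high control library 3 of the 11 were called higher at 24 h, CEBPB among them (0.33), and 2 lower, again FOSL1 and JUN. Among 10 regulators of AU-rich mRNA decay, ZFP36, which binds AU-rich elements and speeds decay, rose at 24 h by 3.72 in MMP14-KO and 3.59 in control spheroids on the log2 scale (198.2 and 192.0 CPM at 24 h against 15.1 and 15.9 CPM in droplets), and 3 others were called higher in MMP14-KO and 5 in control spheroids, with 2 and 4 called lower. These counts stand beside 25.5% and 25.7% of all genes called higher and lower in MMP14-KO and 27.8% and 28.7% in control spheroids.

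Of 19 tested inducing cytokines and their receptors, 1 was called higher and 8 lower in MMP14-KO at 24 h against droplets, and 2 and 11 in control spheroids (medians of -0.27 and -0.32), where 25.5% and 25.7% of all genes were called in MMP14-KO and 27.8% and 28.7% in control spheroids. IL1A and IL1B, the interleukin-1 cytokines that induce these chemokines, were not called at 24 h against droplets in either genotype, with log2 fold changes of -0.09 and -0.39 in MMP14-KO and 0.46 and 0.65 in control spheroids. Without the high library the control values were -0.04 and 0.11. Between the genotypes, 1 of the 19 was called higher and 2 lower in MMP14-KO droplets (7.7% and 9.7% of all genes). At 24 h they were 4 and 2 (13.7% and 15.7%), or 4 and 1 without the high library. At 48 h they were 5 and 1 (14.4% and 15.1%). IL1B was at 29.1 to 47.3 CPM in MMP14-KO and 18.2 to 20.9 CPM in control droplets. At 48 h it was at 17.4 to 36.7 against 8.81 to 15.4 CPM, and at 24 h the genotypes overlapped. TNF was lower in MMP14-KO than in control spheroids in droplets and at 24 h (log2 fold changes of -1.80 and -1.73, both called), at 0.939 against 3.32 CPM in droplets. The value at 24 h did not pass without the high library (-1.19, adjusted p = 0.137 by edgeR). Of 8 cytokines often secreted with CXCL8, 0 were called higher and 0 lower in MMP14-KO than in control droplets (7.7% and 9.7% of all genes). At 24 h 0 were called higher and 3 lower (13.7% and 15.7%), or 1 and 2 without the high library. At 48 h they were 1 and 1, VEGFA and IL11 (14.4% and 15.1%). Those lower at 24 h were CSF3, a neutrophil growth factor, at 5.10 against 17.4 CPM, IL6 at 45.2 against 80.8 CPM and IL11 at 47.7 against 78.7 CPM. Among control libraries at 24 h, replicate 1 was the highest for CSF3, at 29.8 CPM against 11.6 and 10.9 CPM, and for IL6, at 110.8 CPM against 71.1 and 60.3 CPM, and the other 2 still lay above all 3 MMP14-KO libraries (up to 5.82 CPM of CSF3 and 48.9 CPM of IL6). Without it the log2 fold changes were -1.14 for CSF3 and -0.73 for IL11, both called, and -0.53 for IL6 (adjusted p = 0.0531 by edgeR), which did not pass. At 24 h against droplets 5 of the 8 were called higher and 1 lower in each genotype, CSF3 in MMP14-KO and CSF1 in control spheroids. Without the high library the control counts were 5 and 2. Of all genes, 25.5% and 25.7% were called higher and lower in MMP14-KO and 27.8% and 28.7% in control spheroids.

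Chemokines outside the ELR group were mostly lower in collagen. All 3 tested CXC genes without the motif, CXCL10, CXCL11 and CXCL16, were called lower at 24 h and 48 h in both genotypes. Of all genes, 25.7% and 23.6% were called lower at these times in MMP14-KO and 28.7% and 27.5% in control spheroids. CXCL10, an interferon-induced attractant of T cells, was at 4.204 CPM in MMP14-KO and 3.19 CPM in control spheroids at 24 h, against 24.5 and 22.2 CPM in droplets. Of the 6 tested CC and CX3C genes, 0 were called higher and 4 lower in MMP14-KO at 24 h, and 1 and 5 in control spheroids, or 0 and 5 without the high library. The shares of all genes were 25.5% and 25.7% in MMP14-KO and 27.8% and 28.7% in control spheroids. CXCL10 was not called between the genotypes at 24 h, and without the high library it was called higher in MMP14-KO (log2 fold change 1.08, adjusted p = 0.0145 by edgeR). CXCL16 was called lower in MMP14-KO than in control spheroids in droplets and at 48 h (log2 fold changes of -0.71 and -0.67). CXCL11 was called higher at 48 h (0.99, adjusted p = 0.0192 by edgeR). Of the 6 CC and CX3C genes, 1 was called higher and 0 lower in MMP14-KO than in control droplets (7.7% and 9.7% of all genes). At 24 h they were 2 and 1 (13.7% and 15.7%), or 2 and 0 without the high library, and at 48 h 4 and 0 (14.4% and 15.1%). CCL5 was called higher in MMP14-KO than in control spheroids in all 3 conditions, at 1.95 against 0.416 CPM in droplets.

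By Pearson correlation of log2 CPM over 18 libraries, with 11432 genes compared, the genes most like the mean standardised course of the 5 tested members were TNFAIP3 (r = 0.952) and NFKBIA (r = 0.933), inhibitors of NF-kB signalling, then ASS1 (0.928), ZC3H12A (0.887), a ribonuclease that degrades cytokine mRNAs, and CFB (0.877), complement factor B, with 3 more at 0.876 to 0.877. For single members, TMEM132A (0.983), SOD2 (0.977) and ICAM1 (0.968) were nearest to CXCL1, NFKBIZ (0.944), NPDC1 (0.883) and COL27A1 (0.882) to CXCL2, SPIRE2 (0.890), IL6 (0.877) and PTGS2 (0.870) to CXCL3, and PLOD2 (0.929), CFB (0.897) and ADAMTS9 (0.894) to CXCL8. CXCL2 itself had an r of 0.534 with the mean course, against 0.905 for CXCL8 and 0.860 for CXCL1. CXCL5, which passed the filter through its droplet counts alone, counts as 1 of the 5 in that mean. The mean is thus partly the course of a gene that had to be lower in collagen, and a mean without CXCL5 was not compared. Of the 8 genes most like the mean course, 4 were kept by Spearman correlation and 2 by correlation of group means. The libraries share groups, so these values describe the course over 6 groups more than 18 independent points.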

How the data were processed

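RNA from 18 spheroid samples of MDA-MB-231 cells was sequenced as polyA libraries with paired reads of 151 bases, per the labels' protocols. Values in the deposited table are expected counts, 1 for each gene and library, made by the authors with cutadapt 2.3, STAR 2.7.8a and RSEM 1.3.3 on GRCh38, per the submitters' processing notes, and all its values are whole numbers. RSEM divides reads that fit several genes by estimation. The sources used here give neither the strand setting nor the annotation release. The 4 rows that name no gene held 0 counts and were left out. Coordinates came from GENCODE 29 and promoter sequences from RefSeq GRCh38.p14, which held all 6 genes.

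Groups follow the genotype and treatment labels. Genes were kept by filterByExpr with a minimum count of 10 (17030 genes), scaled by TMM and fitted over all 18 libraries with edgeR 4.0.16 (robust quasi-likelihood, 12 residual degrees of freedom, R 4.3.3). The 12 contrasts (9 simple, 3 interactions) were each adjusted by Benjamini-Hochberg over all genes, with a threshold of 0.05. The SE is the log2 fold change divided by the square root of F, and 95% intervals use it with 12 degrees of freedom. The fit was tested on simulated data. Count ratios within libraries were tested by exact permutation, a measure added after the levels were seen. CPM per kb uses the union of exons.

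Totals of 19819401 to 33352163 counts make 3 reads equal at most 0.151 CPM in a library. Alternatives were other scalings (RLE, library size), filters, DESeq2 1.42.0, a replicate block, fits of only the groups compared, summed paralogs and leaving out each library. The pathway lists were refitted without the control library of replicate 1 at 24 h, an alternative added after seeing the data. The members and lists were chosen with earlier results of these data known. Beside the members and MMP14, the text names up to 4 genes of a list with the largest log2 fold change among those called with at least 1 CPM in the higher group, a set of 14 pathway genes whatever their value, and the genes of most like course (at least 5 CPM in some group). SOD2 beside the high library and CEBPD were chosen after their values were seen.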

Additional observations from a re-analysis of the deposited data

How the results depend on the processing

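No result changed sign among those called, over 873 values under alternatives. Of these 792 kept their direction and side of the threshold, 50 newly passed, 6 no longer passed and 25 that were not called changed sign. The 873 values and the counts of members called here include CXCL5. Its calls in collagen against droplets were fixed by the filter, so they say nothing about stability. A count of members with no number of genes called beside it cannot be set against the share over all genes. RLE size factors and library size alone changed no member's call, though library size put the share higher among called genes at 44.2% for MMP14-KO at 48 h against 24 h (54.5% with TMM), 59.0% for the interaction at 24 h (44.8%) and 73.9% at 48 h against droplets (59.0%).

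Without a filter on low counts, members called numbered 3, 4 and 4 for MMP14-KO against control in droplets, at 24 h and at 48 h, 5 for control at 24 h against droplets, 4 for control at 48 h against 24 h, 4 for MMP14-KO at 48 h against droplets, and 2, 4 and 4 for the interactions. Genes called were then 1101 for MMP14-KO at 48 h against 24 h and 2046, 2110 and 240 for the interactions. For the other contrasts of that fit the genes called are not given, so those member counts have no share beside them. That fit of 33364 genes had infinite prior degrees of freedom and gave CXCL8 a quasi-dispersion of 0.700, against 29.2 with the filter, so it did not use the members' own spread. A minimum count of 3, added after seeing the data, kept every member's call.

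With DESeq2, members called were 1 for MMP14-KO against control droplets, 4 for control at 48 h against 24 h and 1 for the interaction at 48 h against droplets, and genes called were 1761 for that interaction and 10 for 48 h against 24 h. With only the groups compared, 1 member was called for MMP14-KO at 48 h against droplets and 1 for the interaction at 48 h against droplets. The cause of these changes was not tested.

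With the replicate block, 1 member (CXCL3) was called for MMP14-KO against control droplets and 1 (CXCL3) for the interaction at 48 h against droplets, where 1838 genes were called. The numbers share little else: deviations of same-numbered samples correlated at -0.070 to 0.137 over 27 pairs, with 2 above 0.1, and 7 of 18 samples were closest to their own number.

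Leaving out each library in turn, members called ranged from 3 to 5 for control and for MMP14-KO at 24 h against droplets, 2 to 4 for MMP14-KO at 48 h against droplets, 1 to 2 for MMP14-KO at 48 h against 24 h and 0 to 1 for the interaction at 48 h against droplets. Genes called ranged from 8703 to 9365 for control and 7724 to 7934 for MMP14-KO at 24 h against droplets. For MMP14-KO at 48 h against droplets they ranged from 7363 to 7968, and for MMP14-KO against control droplets from 1959 to 2949. At 48 h against 24 h they were 1349 to 2027 for control and 324 to 854 for MMP14-KO. The interactions gave 414 to 1953, 316 to 1977 and 0 to 2. CXCL1, CXCL2 and CXCL3 summed to 1 row differed by -0.22, -0.60 and 0.38 on the log2 scale between MMP14-KO and control, none called. With the longest transcript as length, 15 of 36 levels per kb moved by over 1 SD. Of the 23 genes named by likeness, 12 were kept by Spearman and 4 by group means.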
